A study of Homo sapiens with 12 samples.

Results

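The genes described here are 40 human genes for interstrand crosslink repair, homologous recombination and the DNA damage checkpoint, taken from a list by name and not by their values, and all 40 were among the 14029 genes tested. RNA came from ES-2, an established human ovarian cancer cell line, expressing either the control vector (PLKO) or a short hairpin RNA (shRNA) against SRMS, a non-receptor tyrosine kinase. The series labels 12 samples in 4 groups of 3, which cross these constructs with phosphate-buffered saline or cisplatin, a platinum drug that crosslinks DNA. The 6 libraries used here were all given cisplatin at 15 µM for 8 hours, 3 with the vector (genotype given as WT) and 3 labelled SRMS shRNA (genotype given as SRMS knockdown), so no response to cisplatin itself was measured. The 6 libraries in saline are not analysed here. The labels name neither the hairpin's sequence nor the number of hairpins or clones, and do not say that replicates were separate cultures; p-values therefore reflect only how far these libraries differ from each other, and that scatter may be technical.

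Cisplatin joins the strands of DNA, and a replication fork that meets such a crosslink stalls. The Fanconi core complex, a ubiquitin ligase, then marks the FANCD2-FANCI pair, nucleases unhook the crosslink, and homologous recombination, which needs BRCA1, PALB2 and BRCA2, rebuilds the broken strand. In parallel the kinases ATM and ATR halt the cell cycle through CHEK2 and CHEK1. Ovarian cancers are known for losing recombination genes, and such loss is known to make cells sensitive to platinum drugs.

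SRMS, the gene the hairpin was meant to lower, had 2, 14 and 47 reads in vector replicates 1, 2 and 3 and 9, 39 and 27 in the libraries labelled SRMS shRNA. Its signal was 0.397 ± 0.384 against 0.755 ± 0.384 (mean ± SD, n = 3 each; two-sided exact permutation p = 0.2, where the smallest possible is 0.1). The values do not show the fall that the label implies, so every direction below is given for the libraries as they are labelled. Libraries held 28009232 to 56855428 reads, and the 40 genes had from 60 to 9283 reads in a library, with 38 of them at 100 or more in each. Of the epithelial markers, KRT8, KRT18 and KRT7 were present, at 91.4 to 1020 across libraries; KRT8 and KRT18 rose (log2 fold change 0.18 and 0.21) and KRT7 fell (-0.36). WT1 was low and fell, from 2.58 to 3.21 with the vector to 1.37 to 1.496 (-0.80, limma adjusted p = 0.000175), while PAX8 was at most 0.365 and EPCAM, CDH1, KRT19 and MUC16 were not analysed here. Summed mesenchymal markers ran from 5849 to 6387 with the vector and from 7029 to 7791 in the libraries labelled SRMS shRNA (4 of 4 genes measured), with VIM and FN1 higher (0.29 and 0.27) and ZEB1 and CDH2 lower (-0.47 and -0.17). Summed markers of other cell types also differed between the groups, from 49.5 to 52.2 with the vector against 60.6 to 65.1 for leukocytes (4 of 6 genes measured, nearly all of it CD68), 14.8 to 16.8 against 5.88 to 8.36 for endothelium (3 of 4, mostly CDH5) and 1237 to 1240 against 814 to 821 for fibroblasts (3 of 5, nearly all COL1A1). Their part in the results was not tested.

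Most of the 40 genes were lower in the libraries labelled SRMS shRNA than in the vector libraries. By limma on log2(signal + 0.5), with p-values adjusted by Benjamini-Hochberg across the whole table and called under 0.05, 27 fell, 3 rose and 10 did not pass. Signal here means reads divided by an effective library size, on a scale like CPM. The 27 that fell are 67.5% of the list, where 30.2% of all genes tested fell, and the 3 that rose are 7.5%, where 26.6% of all genes rose. In either direction 75% of the list was called, against 56.8% of all genes. The median log2 fold change was -0.31 for the list and 0.00 for all genes. Groups were fully separated for 30 of the 40 genes, 26 of them below and 4 above the vector, against 62.7% of all genes (32.9% below and 29.7% above). In bulk RNA, fewer cells that express a gene and less of its RNA per cell cannot be told apart.

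The scale of the libraries and transcript length moved with these counts. Under an alignment of the libraries on their medians, 7 of the 40 rose and 19 fell, against 44.6% and 17.9% of all genes. That alignment moved the median log2 fold change of all genes up, from 0.00 to 0.16. With the replicate number as a block and each library's trend on length and GC content taken out, 6 rose and 22 fell, against 28.7% and 32.7% of all genes, and the median of the list was -0.19. Under the median alignment it was -0.15, where the median of all genes was 0.16. Of the 40 genes, 18 were lower and past the threshold in the main comparison and under all 18 alternative settings. Among them are BARD1, BRCA1, BRCA2, PALB2, BRIP1, XRCC2, BLM, FANCM and FANCB. MDC1 was the 1 gene that was higher under all of them. How many of all genes tested held under every setting was not counted, so these counts have no share to be read against. Where a call also had to reach 0.5 in size on the log2 scale, 11 fell and 0 rose, against 10.0% and 7.05% of all genes.

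**Figure D1:**
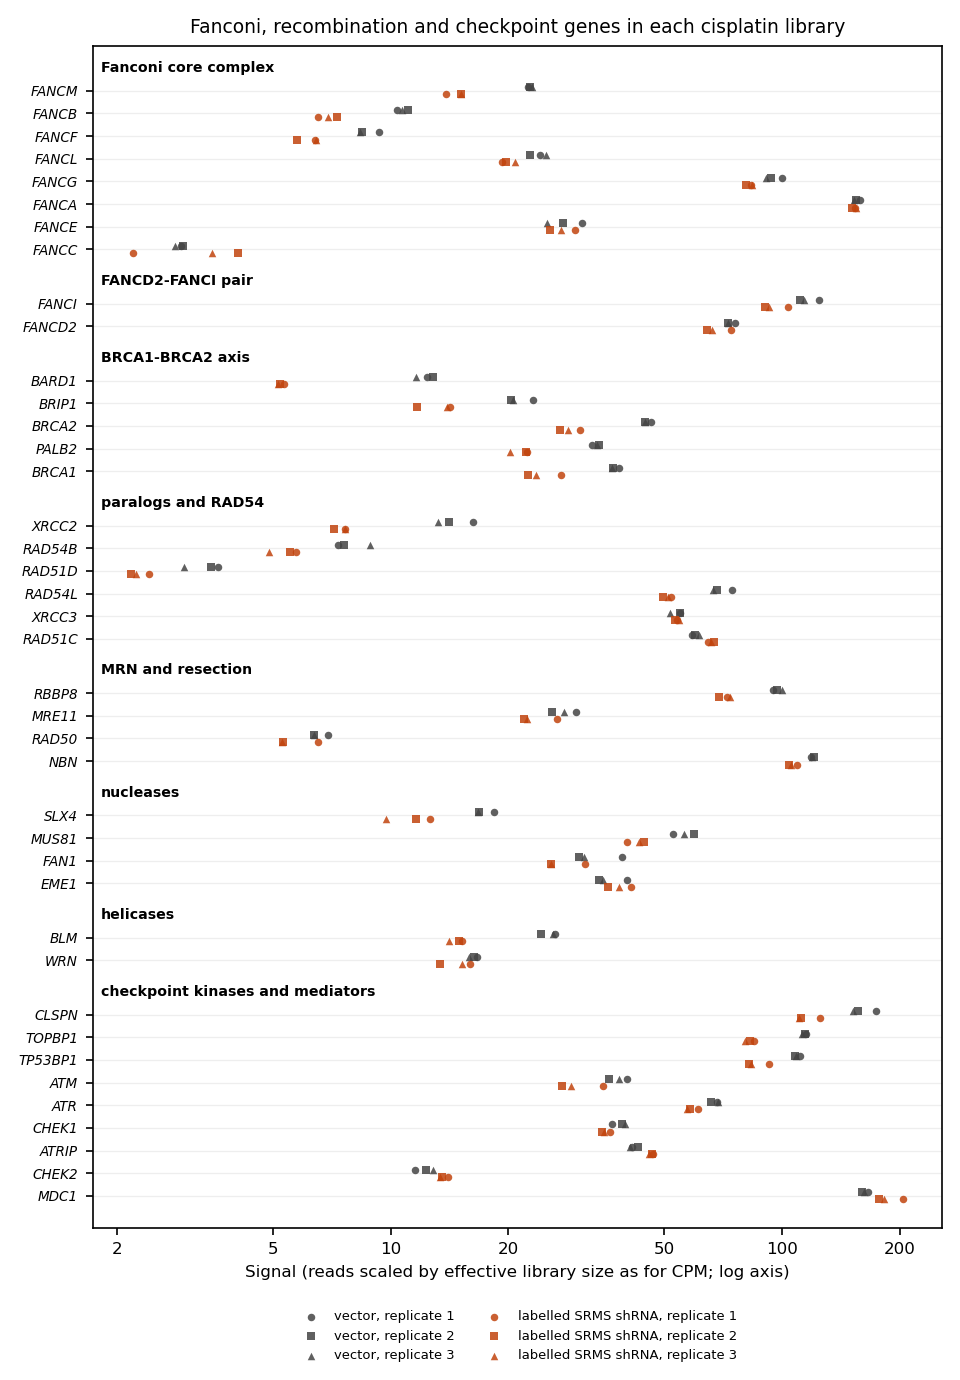
Signal of each of the 40 genes in each of the 6 libraries given cisplatin (horizontal log axis, reads scaled as for CPM), grouped by role. Grey symbols are vector replicates and orange symbols are replicates labelled SRMS shRNA. BARD1, XRCC2 and BLM show the widest gaps, and MDC1, RAD51C, ATRIP and CHEK2 lie to the right of the vector.

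The group around BRCA1 and BRCA2 fell as a whole, 5 of 5 genes, with a median log2 fold change of -0.65. BRCA1 and BARD1 form a ubiquitin ligase that opens the way to recombination, PALB2 bridges BRCA1 to BRCA2, BRCA2 acts on the single-stranded DNA where recombination starts, and BRIP1 (FANCJ) is a helicase bound by BRCA1. BARD1 (ENSG00000138376, chromosome 2, 214725646 to 214809711, minus strand, GRCh38) stood at 12.4, 12.8 and 11.6 in vector replicates 1, 2 and 3. It stood at 5.33, 5.22 and 5.15 in the libraries labelled SRMS shRNA, below every vector value, with a ratio of group means of 0.426 (log2 fold change -1.16, SE 0.0769, limma adjusted p = 1.59e-06). BARD1 had the largest drop of the 40 and the 85th lowest fold change of all 14029 genes.

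The other genes of this group fell less than BARD1 and by amounts similar to each other, with log2 fold changes from -0.67 to -0.61. BRCA1 (chromosome 17, 43044295 to 43170245, minus strand) had 38.4, 37.0 and 36.9 with the vector and 27.3, 22.5 and 23.5 in the libraries labelled SRMS shRNA (-0.61, SE 0.0696, limma adjusted p = 4.42e-05). BRCA2 (chromosome 13, 32315474 to 32400266, plus strand) had 46.3, 44.8 and 44.6 against 30.5, 27.1 and 28.5 (-0.65, SE 0.0531, limma adjusted p = 5.04e-06). In none of these genes did the groups overlap, and replicate 1 was the highest of its group for both.

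PALB2 had 32.8, 34.1 and 33.6 with the vector and 22.3, 22.2 and 20.2 in the libraries labelled SRMS shRNA (-0.63, SE 0.0557, limma adjusted p = 8.92e-06). BRIP1 had 23.2, 20.3 and 20.6 against 14.2, 11.7 and 13.9 (-0.67, SE 0.0852, limma adjusted p = 9.19e-05). Each group's highest value lay well apart from the other group's lowest in both genes. With the replicate block and the length and GC trend removed, the 5 genes stayed past the threshold at smaller sizes, with -0.92 for BARD1, -0.49 for PALB2, -0.42 for BRIP1, -0.35 for BRCA1 and -0.35 for BRCA2. Per kilobase of transcript, the vector level of BARD1 was 2.24 and that of BRCA1 5.15, and in the libraries labelled SRMS shRNA they were 0.952 and 3.36.

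RAD51C, RAD51D, XRCC2 and XRCC3, a family of related proteins that assist strand exchange in recombination, did not move together. XRCC2 (chromosome 7, 152644779 to 152676165, minus strand) fell, from 16.2, 14.1 and 13.2 with the vector to 7.66, 7.18 and 7.64 in the libraries labelled SRMS shRNA (-0.90, SE 0.0867, limma adjusted p = 1.44e-05). RAD51D, which shares a complex with XRCC2 and RAD51C, fell from 3.61, 3.47 and 2.96 to 2.41, 2.17 and 2.24 (-0.47, SE 0.107, limma adjusted p = 0.0037). RAD51C rose, from 59.0, 60.0 and 61.3 to 64.8, 67.1 and 66.0 (0.13, SE 0.0386, limma adjusted p = 0.0138). XRCC3, the partner of RAD51C in a second complex, had 54.9, 54.8 and 51.8 against 54.0, 53.2 and 54.6, and its groups overlapped (0.00, 95% interval -0.09 to 0.10).

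RAD51D was counted in as few as 66 reads in a library, and with the replicate block and the length and GC trend removed its fold change was -0.23 (limma adjusted p = 0.098). RAD51C was not past the threshold without replicate 2 labelled SRMS shRNA (0.12, limma adjusted p = 0.0518) or with replicates 2 and 3 averaged (0.13, limma adjusted p = 0.0979). The exons of XRCC3 share 76.7% of their bases with KLC1 on the other strand. The authors' use of strand in counting is not given in the sources used here, so the level of XRCC3 is uncertain. Under median alignment XRCC3 passed at 0.16 (limma adjusted p = 0.00622), but the median of all genes was also 0.16 there.

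RAD54L and RAD54B, motor proteins that act during strand exchange, both fell. RAD54L had 74.3, 68.2 and 66.7 with the vector and 51.9, 49.6 and 51.2 in the libraries labelled SRMS shRNA (-0.45, SE 0.0488, limma adjusted p = 3.29e-05). RAD54B had 7.33, 7.60 and 8.85 against 5.73, 5.53 and 4.89 (-0.52, SE 0.0996, limma adjusted p = 0.00133). The groups did not overlap in either gene. RAD54B shares 59.1% of its exon bases with FSBP on the same strand, so reads could be split between them; FSBP stood at 0.928 and 0.621 (group means).

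**Figure D2:**
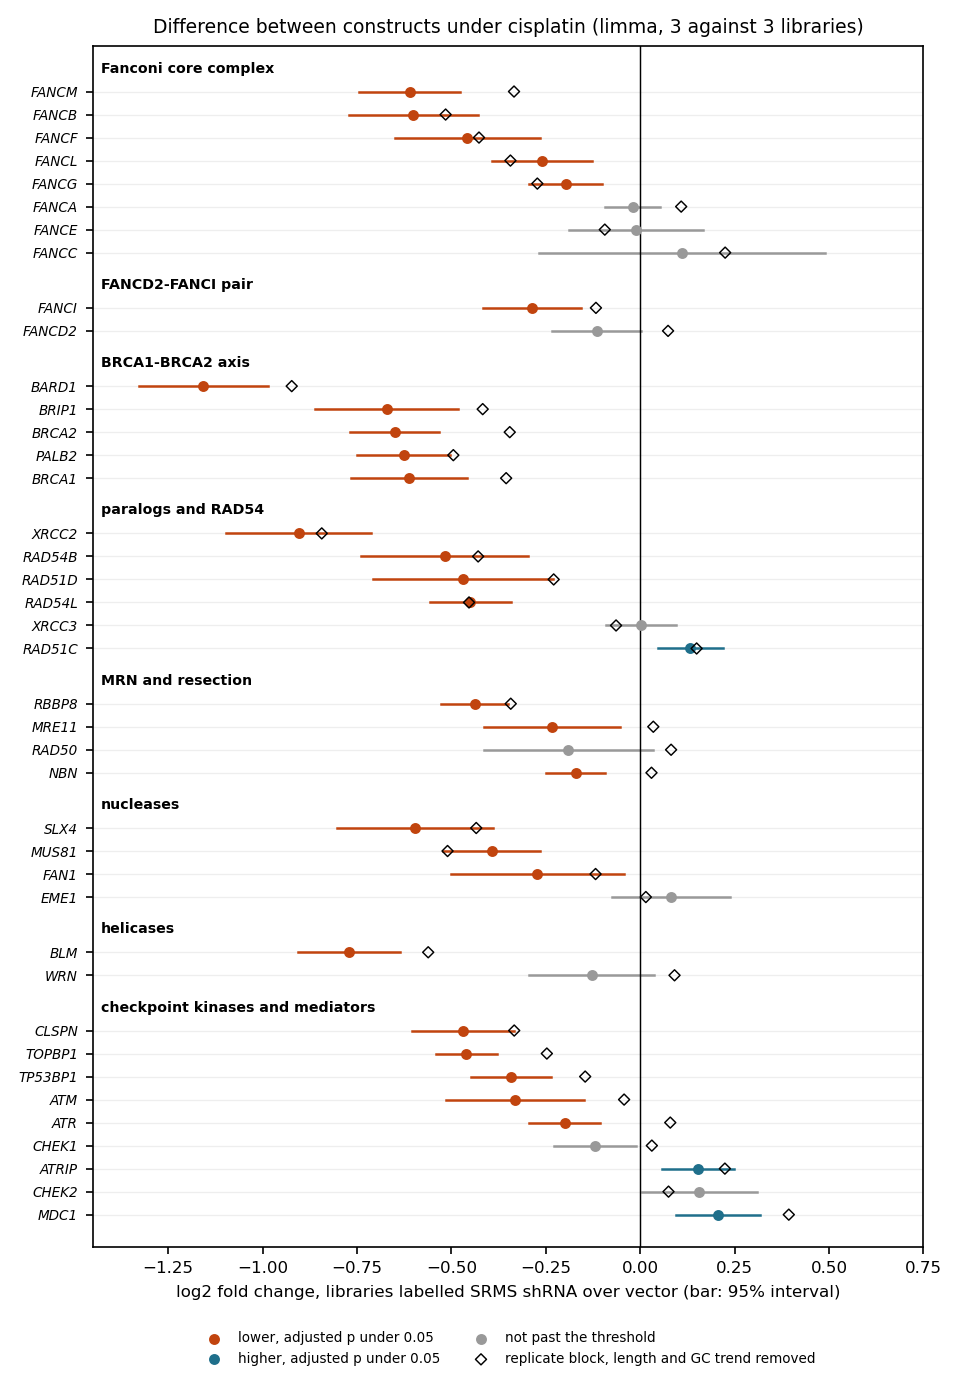
Log2 fold change of each gene, libraries labelled SRMS shRNA over vector, with the 95% limma interval as a bar and colour for the call. Open diamonds give the estimate with the replicate block and the length and GC trend removed. The 5 genes of the BRCA1-BRCA2 group stay left of 0 in both. MRE11, NBN and ATR, which were called lower, cross 0. So do FANCA, FANCD2, XRCC3, RAD50, WRN and CHEK1, which were not called.

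In the Fanconi core complex 5 of 8 genes fell and 0 rose, with a median of -0.23. FANCM, the DNA translocase that recruits the complex to a stalled fork, had 22.4, 22.7 and 22.9 with the vector and 13.8, 15.1 and 15.2 in the libraries labelled SRMS shRNA (-0.61, SE 0.0603, limma adjusted p = 1.77e-05). FANCB, which sits beside the catalytic subunit, had 10.4, 11.1 and 10.7 against 6.53, 7.29 and 6.91 (-0.60, SE 0.0773, limma adjusted p = 9.94e-05). In both genes all 3 vector values lay above all 3 others. FANCF, an adaptor subunit whose gene has a single exon, went from 9.33, 8.43 and 8.33 to 6.42, 5.75 and 6.43 (-0.46).

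FANCL, the catalytic ubiquitin ligase, and FANCG fell less, by 0.26 and 0.20 on the log2 scale (limma adjusted p = 0.00389 and 0.00297). FANCL went from 24.1, 22.7 and 25.0 to 19.3, 19.7 and 20.8, with no overlap. Under median alignment neither passed (-0.10 and -0.04, limma adjusted p = 0.171 and 0.459). FANCA, a core subunit, had 158, 155 and 153 against 154, 151 and 154, with a fold change of -0.02 (95% interval -0.09 to 0.05). Under median alignment FANCA was higher, at 0.14 (limma adjusted p = 0.00341), though below the median of all genes there (0.16). FANCA was at 0.11 with the replicate block and the length and GC trend removed (limma adjusted p = 0.000154). FANCE had group values of 25.0 to 30.8 and 25.6 to 29.6, which overlapped.

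FANCC was the most scattered of the 40. It had 2.91, 2.95 and 2.81 with the vector but 2.19, 4.07 and 3.48 in the libraries labelled SRMS shRNA, a coefficient of variation of 29.6% in that group against a median of 5.46% over the 40 genes. Its 60 reads in replicate 1 labelled SRMS shRNA were the fewest of any of the 40 genes in a library. The fold change was 0.11 (95% interval -0.27 to 0.49). It was 0.33 without that library (limma adjusted p = 0.0267).

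Of the pair that the core complex marks with ubiquitin, FANCI fell and FANCD2 did not pass. FANCI had 124, 111 and 114 with the vector and 103, 90.3 and 92.6 in the libraries labelled SRMS shRNA (-0.29, SE 0.0582, limma adjusted p = 0.00182), and -0.13 under median alignment (limma adjusted p = 0.0678). FANCD2 had 75.8, 72.8 and 73.0 against 74.0, 64.5 and 66.3, and replicate 1 labelled SRMS shRNA lay among the vector values (-0.11, limma adjusted p = 0.0864). With the replicate block FANCD2 passed (limma adjusted p = 0.00455), and without replicate 1 labelled SRMS shRNA it was -0.17 (limma adjusted p = 0.00238). Once the length and GC trend was removed under the replicate block it stood on the other side of 0, at 0.07 (limma adjusted p = 0.0386).

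For the nucleases, 3 of 4 genes fell. SLX4, the scaffold that gathers nucleases at a crosslink, had 18.3, 16.8 and 16.7 with the vector and 12.6, 11.6 and 9.72 in the libraries labelled SRMS shRNA (-0.60, SE 0.093, limma adjusted p = 0.000347). MUS81, a nuclease that SLX4 binds, had 52.6, 59.6 and 56.3 against 40.2, 44.5 and 43.2 (-0.39, limma adjusted p = 0.000225). Neither gene's groups overlapped. EME1, which pairs with MUS81, had 40.1, 34.2 and 34.9 against 41.2, 35.9 and 38.4 (0.08, 95% interval -0.08 to 0.24). Under median alignment EME1 was 0.24 (limma adjusted p = 0.0108). The subunits of that enzyme were thus called differently, and the difference between them was not tested. MUS81 shares 13.9% of its exon bases with CFL1 and EME1 16.4% with LRRC59, both on the other strand. CFL1 stood at 1967 and 2366 and LRRC59 at 483 and 529 (group means). The levels of MUS81 and EME1 are uncertain if counting did not use strand.

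FAN1, a nuclease that FANCD2 recruits, had 39.0, 30.2 and 31.2 against 31.4, 25.7 and 25.7 (-0.27, limma adjusted p = 0.0434). Replicate 1 was high in both groups, and the groups overlapped. Without vector replicate 1 FAN1 was -0.16 (limma adjusted p = 0.157), it also did not pass without vector replicate 3 or replicate 2 or 3 labelled SRMS shRNA (limma adjusted p = 0.0502, 0.146 and 0.141), and it failed under 8 of the 18 alternative settings.

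BLM, a helicase of the RecQ family that dissolves recombination intermediates, fell from 26.3, 24.2 and 26.0 to 15.2, 15.0 and 14.1 (chromosome 15, 90717327 to 90816165, plus strand; -0.77, SE 0.0609, limma adjusted p = 4.2e-06). The related helicase WRN had 16.6, 16.3 and 15.9 against 15.98, 13.4 and 15.3, and its groups overlapped (-0.13, 95% interval -0.29 to 0.04). Under median alignment WRN stood at 0.03.

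Of the genes that open DNA ends for recombination, RBBP8, which encodes the resection factor CtIP, fell the most. It had 95.1, 97.3 and 99.9 with the vector and 72.5, 69.3 and 73.7 in the libraries labelled SRMS shRNA (-0.44, SE 0.0401, limma adjusted p = 1.07e-05). MRE11, NBN and RAD50 form the complex that senses and trims the ends. NBN had 119, 121 and 119 against 109, 104 and 105 (-0.17, limma adjusted p = 0.00205). MRE11 had 29.8, 25.8 and 27.7 against 26.6, 21.97 and 22.3, which overlapped (-0.23, limma adjusted p = 0.0306). MRE11 did not pass under 9 of the 18 alternative settings, among them leaving out vector replicate 1 or 3 (-0.18 and -0.23, limma adjusted p = 0.108 and 0.074) or replicate 2 or 3 labelled SRMS shRNA (-0.19 and -0.20, limma adjusted p = 0.116 and 0.107). With the replicate block and the length and GC trend removed, NBN and MRE11 changed sign and did not pass (0.03 each, limma adjusted p = 0.319 and 0.549), and under median alignment they did not pass either (-0.01 and -0.07).

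RAD50 had 6.36 to 6.93 with the vector and 5.28 to 6.53 in the libraries labelled SRMS shRNA (-0.19, limma adjusted p = 0.131; -0.28 without replicate 1 labelled SRMS shRNA, limma adjusted p = 0.0239). Its exons share 79.7% of their bases with AC116366.3, an overlapping gene model on the same strand that was not analysed here, so its level is uncertain. Per kilobase RAD50 was at 0.789 with the vector, against 4.03 for MRE11 and 25.6 for NBN.

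The checkpoint genes were the most mixed, with 2 of 9 higher, 5 lower and a median of -0.20. Mediators on the ATR side fell. CLSPN (claspin), which brings CHEK1 to ATR, had 174, 156 and 152 with the vector and 125, 112 and 111 in the libraries labelled SRMS shRNA (-0.47, SE 0.061, limma adjusted p = 0.000106). TOPBP1, the activator of ATR, had 115, 114 and 112 against 84.8, 82.7 and 80.5 (-0.46, SE 0.0363, limma adjusted p = 4.15e-06). Neither pair of groups overlapped, and CLSPN had the highest level per kilobase of the 40 genes with the vector, at 38.6.

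The kinases themselves moved less. ATR had 68.4, 65.9 and 68.7 with the vector and 61.1, 58.3 and 57.2 in the libraries labelled SRMS shRNA (-0.20, limma adjusted p = 0.00223). ATM had 40.2, 36.2 and 38.3 against 34.8, 27.4 and 28.97 (-0.33, limma adjusted p = 0.00583). The groups did not overlap in either gene. With the replicate block and the length and GC trend removed, ATR turned to 0.08 (limma adjusted p = 0.0306) and ATM to -0.04 (limma adjusted p = 0.407), and under median alignment neither passed (-0.04 and -0.17).

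The effector kinases did not pass the test. CHEK1 had 36.8, 38.9 and 39.8 against 36.4, 34.8 and 35.0 (-0.12, limma adjusted p = 0.059). It was past the threshold with the replicate block (limma adjusted p = 0.0198) and, at -0.17, with replicate 1 of both groups left out (limma adjusted p = 0.0021), and it was at 0.04 under median alignment. CHEK2 had 11.5, 12.3 and 12.8 against 14.05, 13.5 and 13.4 (0.16, limma adjusted p = 0.0727). The CHEK2 values lay above the vector in every library, and under median alignment it passed at 0.32 (limma adjusted p = 0.00228).

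The 2 chromatin mediators of the damage response were called in opposite directions. MDC1, which binds phosphorylated histone H2AX at breaks, had 166, 160 and 162 with the vector and 204, 177 and 183 in the libraries labelled SRMS shRNA (0.21, SE 0.0504, limma adjusted p = 0.0055). TP53BP1 (53BP1), which restrains end resection, had 111, 108 and 109 against 92.7, 82.5 and 83.5 (-0.34, SE 0.0476, limma adjusted p = 0.000166). Neither gene's groups overlapped. With the replicate block and the length and GC trend removed MDC1 was at 0.39 and TP53BP1 at -0.15, both past the threshold.

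ATRIP, the partner subunit of ATR, rose from 41.3, 42.9 and 40.9 to 46.9, 46.6 and 45.8 (0.15, SE 0.0425, limma adjusted p = 0.0108). Its exons share 27.9% of their bases with TREX1, a DNA exonuclease gene on the same strand, which also rose, from 38.4 to 46.6 (group means). Reads from those exons could be counted for either gene. ATRIP was not past the threshold without vector replicate 3 (0.14, limma adjusted p = 0.052) or with replicates 2 and 3 averaged (0.16, limma adjusted p = 0.0649).

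Many recombination genes are known targets of the E2F transcription factors, so RefSeq promoters (GRCh38.p14, 250 bases before to 50 after each start) were searched for the E2F site letters TTTGGCGC, TTTCGCGC and TTCCCGCC on both strands. Promoters were listed for 36 of the 40 genes, and 10 of these, 27.8%, held at least 1 match at any listed start, as did 8.44% of the 11313 genes tested that had a promoter. Of 24 genes that fell 7 held a match, and of the other 12 genes 3 did. Windows of 30 bases are shown for 6 genes that fell and for 2 that did not pass, with the match in capitals, written 5′ to 3′ on the gene's strand.
XRCC2: atggcgttggtGGCGGGAAagttgagtctc
BLM: cagcctgagggGGCGGGAAcagatgtccga
BRIP1: agggggcgggaGGCGGGAAttcgtctcggg
CLSPN: cactctggctgGGCGGGAAagcaagaacag
TOPBP1: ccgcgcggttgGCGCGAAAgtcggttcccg
RAD54L: gcgcagcactaTTCCCGCCtcttccttggg
FANCD2: gcgtcgggcctGGCGGGAAagtcgaaaact
XRCC3: aggagcaggacGGCGGGAAgaggagtgcgg
The windows lie at chr7:152676103-152676132 (minus) for XRCC2, chr15:90717260-90717289 (plus) for BLM, chr17:61863509-61863538 (minus) for BRIP1 and chr1:35769966-35769995 (minus) for CLSPN. Those of TOPBP1, RAD54L, FANCD2 and XRCC3 lie at chr3:133661930-133661959 (minus), chr1:46247628-46247657 (plus), chr3:10026423-10026452 (plus) and chr14:103715436-103715465 (minus). The letters GGCGGGAA thus stand near the start of XRCC2, which had the second largest drop, and of XRCC3, whose groups overlapped. BARD1, BRCA1, BRCA2 and PALB2, which all fell, held no match in these windows of promoter. The median log2 fold change was -0.45 for the 10 genes with a match and -0.30 for the 26 without, and -0.04 and 0.00 for all genes tested.

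Transcript length moved with the fold change across all genes. The 40 genes had a median transcript of 4689.5 nt against 3055 nt for all genes, and a GC content of 42.7% against 49.4%. Of transcripts split by length into 5 equal classes, in the longest class 12 of 15 listed genes fell, where 54.4% of all genes in it fell, and the medians were -0.46 and -0.23. In the next shorter class 6 of 11 fell, against 42.1% of all genes, with medians of -0.17 and -0.12. In the middle class 7 of 9 fell, against 842 of 2809 genes, and the medians were -0.45 and -0.02. In the class below it 1 of 4 fell, against 17.6%, with medians of 0.03 and 0.09, and in the shortest class the 1 listed gene, FANCL, fell, against 6.76%. Across the 40 genes Spearman's rho of fold change with length was -0.27, and with GC content 0.46, against -0.46 and 0.28 across all genes; these are correlations across genes that share libraries, given as descriptions.

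**Figure D3:**
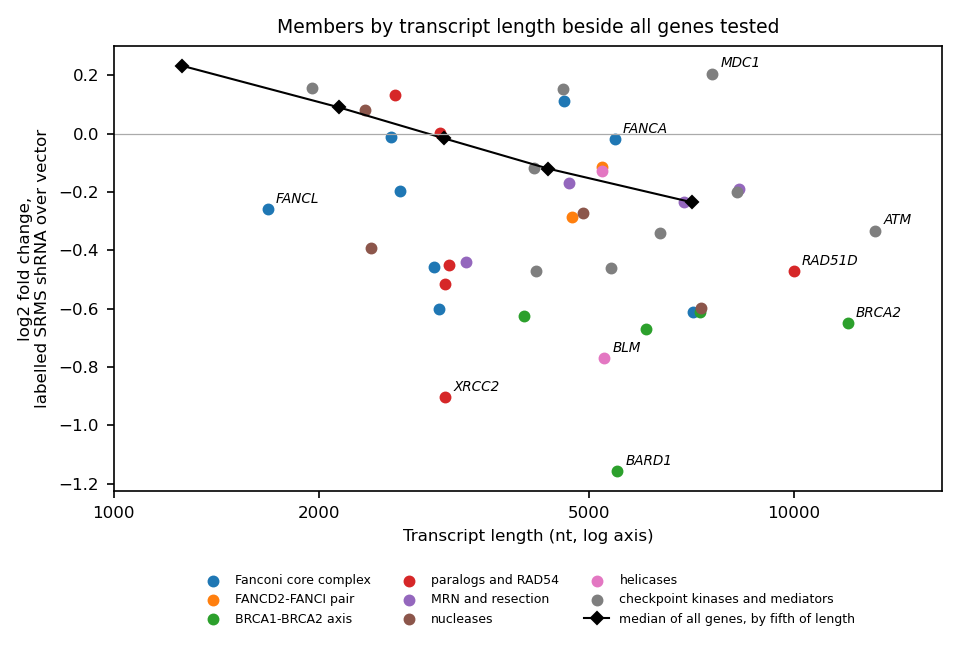
Log2 fold change (libraries labelled SRMS shRNA over vector) against transcript length (log axis) for the 40 genes, coloured by role. Black diamonds joined by a line are medians of all genes tested by length class (5 equal classes), from 0.23 in the shortest to -0.23 in the longest; BARD1, XRCC2 and BLM lie far below the line and MDC1 above it.

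Replicate 1 stood apart for these genes in both groups. It held the highest value of its group for 25 of the 40 with the vector and for 29 of the 40 in the libraries labelled SRMS shRNA, against 38.9% and 43.2% of all genes. Taken by replicate number, 31 of the 40 were lower in 3 of 3 pairs and 5 were higher in 3 of 3, against 39.0% and 37.6% of all genes. The median difference over the 40 genes was -0.31, -0.34 and -0.32 in pairs 1, 2 and 3. With replicate 1 of both groups left out, 29 fell and 4 rose, against 4653 and 4091 of the 14029 genes tested.

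Other genes of the same pathways, which are not among the 40, gave shares of calls that can be read against all genes tested, of which 26.6% rose and 30.2% fell. Of 13 measured genes tied to the Fanconi pathway, 4 rose and 4 fell, 30.8% each and near those shares, with a median of 0.13. USP1, which removes ubiquitin from FANCD2, fell from 205 ± 3.69 to 149 ± 5.39 (SD, n = 3 each). RFWD3, a ubiquitin ligase for RPA, fell from 69.4 to 45.4 and FAAP100 from 22.6 to 16.2 (group means). FAAP20, a short core subunit, rose from 61.6 to 89.2 (group means). Of 20 further recombination genes, 4 rose and 9 fell (45.0%), with a median of -0.15. Those that fell include GEN1, a nuclease that cuts recombination junctions, at -0.88, TOP3A, the topoisomerase that works with BLM, at -0.75, and EXO1, a resection nuclease, at -0.64. The largest rise in this list was that of RAD51B, from 2.36 to 3.60 (group means, 0.53, limma adjusted p = 0.0061), with as few as 82 reads in a library.

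Of 14 genes of the BRCA1-A complex and the 53BP1 pathway, 2 rose (14.3%) and 9 fell (64.3%), with a median of -0.27. SHLD2, a shieldin subunit that acts below 53BP1, fell from 37.2 to 16.6, and RIF1, another 53BP1 partner, from 128 to 64.0 (group means; log2 fold changes -1.14 and -0.99). Of 13 further checkpoint genes, 0 rose and 10 fell (76.9%), with a median of -0.23, and CDC25A, the phosphatase that the checkpoint removes to stop the cycle, fell from 80.7 to 36.2. Of 20 S phase genes, 1 rose and 10 fell, with a median of -0.17, and of 18 G2/M genes, 5 rose (27.8%) and 8 fell (44.4%), with a median of -0.07; their part in the fall of the repair genes was not tested. Under median alignment 44.6% of all genes tested rose and 17.9% fell. The list counts, higher then lower, were then 8 and 3 for the Fanconi-associated genes, 6 and 6 for recombination and 5 and 7 for the 53BP1 pathway. They were 1 and 3 for the checkpoint, 6 and 5 for S phase and 9 and 5 for G2/M. Under the replicate block with the length and GC trend removed 28.7% of all genes rose and 32.7% fell. The list counts there were 1 and 7, 2 and 11, 1 and 8, 0 and 10, 1 and 14, and 3 and 8 in the same order. FAAP20 did not pass under that block (0.06, limma adjusted p = 0.0597), while FAAP100 was lower at -0.51 (limma adjusted p = 6.41e-09).

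**Figure D4:**
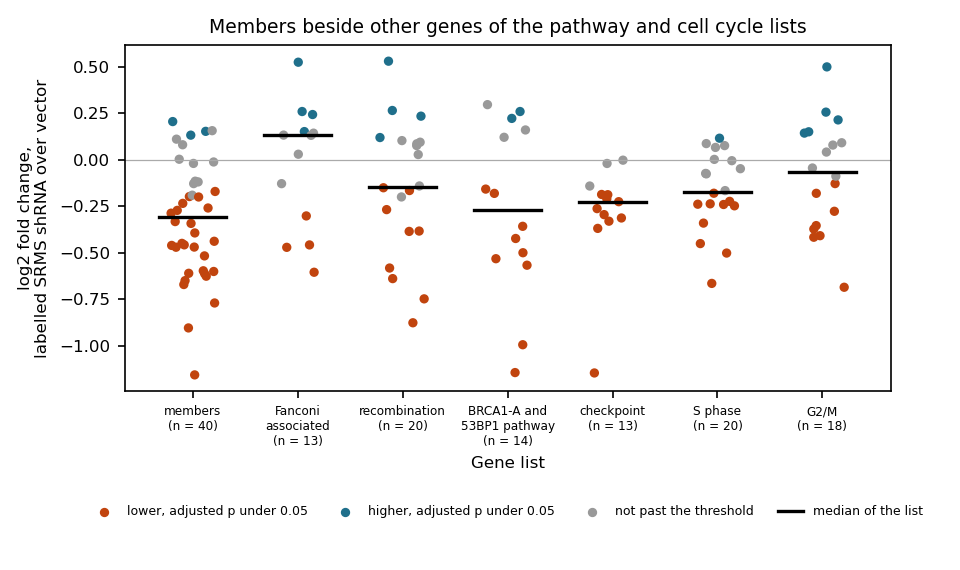
Log2 fold change (libraries labelled SRMS shRNA over vector) of every measured gene in the 40-gene list (members) and in 6 other lists, 1 point per gene, coloured by call, with the list's median as a black bar. The medians run from -0.31 for the 40 genes to 0.13 for the Fanconi-associated list.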

How the data were processed

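The deposited table holds linear signal, not the log CPM its name gives: the authors' values are reads scaled by an effective library size. Whole reads were recovered, within 0.1, for at least 99.99% of values. The submitters' processing notes list edgeR, StringTie, HISAT2, cutadapt and FastQC, with GRCh38. Versions and settings: not given in the sources used here. Of 14042 rows, 13 for Y copies of pseudoautosomal genes were left out. The main test was limma 3.58.1 (R 4.3.3) with a mean-variance trend on log2(signal + 0.5), so fold changes of low genes are understated. edgeR 4.0.16 and DESeq2 1.42.0 were run on recovered reads. The fits were also run on simulated reads with independent replicates. That simulation held no shift of replicate 1, so it cannot show how the fits handle one. Lengths, GC content and gene positions come from GENCODE release 29, with 1 coding transcript per gene (principal by APPRIS where marked, then longest), which may not be the one ES-2 cells use. Further listed genes share exon bases with a gene on the other strand, among them TP53BP1 (28.7%), RAD54L (25.1%), FAN1 (24.3%) and FANCA (23.6%). All 40 listed genes are named, with full statistics mainly for those called with a log2 fold change of 0.5 or more in size, and from other lists up to 4 genes with small adjusted p. Genes, lists and alternatives were chosen with earlier results of these data known. Replicates 2 and 3 of each group lay closer to each other (chi-square per gene 1.78 and 1.63 for genes with 200 to 5000 reads) than to replicate 1 (3.37 to 4.66) but still differed in abundant genes; none was merged. Labels number replicates 1 to 3 without saying what a number shares. Across genes, deviations from the group mean had r of 0.309, 0.106 and 0.120 between libraries of the same number. Replicate 2 of 1 group and 3 of the other also correlated (0.113 and 0.114), so these values do not show which of them pair. The main test took no pairs. Only the settings with a replicate block and the comparisons by replicate number did. Results for some withheld items are not reported here.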

Additional observations from a re-analysis of the deposited data

How the results depend on the processing

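Of the 40 genes 30 were called, 3 up and 27 down, and the median was -0.31 on the log2 scale. Of all 14029 genes tested 3736 were called up and 4233 down. Median alignment gave 7 higher and a median of -0.15, quantile scaling a median of -0.26, and the replicate block with the length and GC trend removed 6 higher and a median of -0.19. Among all genes 44.6% rose under median alignment and 28.7% under the block with the trend removed. The median of all genes was 0.16 under median alignment, 0.01 under quantile scaling and -0.01 under the block with the trend removed. Leaving out replicate 1 of both groups gave a median of -0.34, and averaging replicates 2 and 3 gave 1 higher and a median of -0.29. That averaging called 2781 of all genes higher. A minimum absolute log2 fold change of 0.5 left 11 called, 0 higher and 11 lower, against 7.05% and 10.0% of all genes. Leaving out single libraries gave 27 to 34 called, 2 to 4 higher, 25 to 30 lower and medians of -0.36 to -0.26. Among all genes these settings called 3195 to 3891 higher and 3697 to 4433 lower. The replicate block alone gave 32 called, 3 higher and 29 lower, against 4349 higher and 4805 lower of all genes. Of the 40 genes it changed the calls of FANCD2 and CHEK1 and no other. edgeR and DESeq2 on recovered reads each called the same numbers, 3 higher and 27 lower, as did pseudocounts of 1 and 0.1 and a minimum mean of 1. Among all genes edgeR called 3893 higher and 4165 lower, and DESeq2 3585 and 3790. The pseudocount of 1 gave 3718 and 4219, and that of 0.1 gave 3732 and 4241. The minimum mean gave 3113 and 4100 of the genes it kept.

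Some signs turned, mostly for genes not called in the main comparison, but also for MRE11, NBN and ATR, which were called lower; ATR was then called higher (limma adjusted p = 0.0306). With libraries aligned on their medians FANCA was 0.14, FANCE 0.15, FANCD2 0.0451, WRN 0.0321 and CHEK1 0.0412, all below the median of all genes there (0.16). Quantile scaling gave 0.11 for FANCE and 0.0371 for WRN, and DESeq2 gave 0.0017 for FANCE. With the replicate block and the length and GC trend removed FANCA was 0.11, FANCD2 0.074, XRCC3 -0.0638, MRE11 0.0349, RAD50 0.082, NBN 0.0301, WRN 0.0911, ATR 0.0798 and CHEK1 0.031. With replicate 1 of both groups left out FANCE was 0.0096, and with replicates 2 and 3 averaged FANCC was -0.0024 and XRCC3 -0.0034. Leaving out single libraries gave FANCE from -0.0832 to 0.0635, FANCC from -0.0493 to 0.33 and XRCC3 from -0.0235 to 0.0172. Beside the scaling itself, the cause of these changes was not tested. Depth limits FANCC, RAD51D and SRMS most.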

Other observations

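The hexamer CGTGTC, picked by a scan of these same fold changes in an earlier analysis, was looked for in the coding sequence and 3′ UTR of 1 transcript per gene. It was held by 7 of the 40 genes, 17.5%, against 25.5% of all genes tested, and by 1 of the 11 genes called at a log2 fold change of -0.5 or less (SLX4). BARD1, XRCC2, BLM, BRCA1, BRCA2, PALB2 and BRIP1 held none. The median log2 fold change was -0.33 for the 7 genes that hold it and -0.29 for the other 33, while across all genes it was -0.08 and 0.03. These are descriptions of letters in 1 annotated transcript, with no test.

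RAD51D and FANCC were the lowest of the 40 per kilobase, at 0.335 and 0.629 with the vector. RAD51D was measured against an annotated transcript of 9988 nt with a long 3′ UTR. NPAT, singled out after its values were seen, which shares its promoter region with ATM on the other strand, fell from 23.2 to 9.003 (group means; log2 fold change -1.32), more than ATM at -0.33.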
